A study of Drosophila melanogaster with 18 samples.

Results

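Peptidoglycan recognition proteins (PGRPs) are the proteins with which a fly detects bacterial cell wall. The 10 PGRP genes described here are PGRP-LC, PGRP-LE, PGRP-LA, PGRP-LF, PGRP-SA and PGRP-SD, grouped as receptors and their regulators, and PGRP-LB, PGRP-SB1, PGRP-SC1a and PGRP-SC2, grouped as amidases. They were chosen with earlier results of these data known, and PGRP-LD, PGRP-SB2 and PGRP-SC1b are not among them. All were found by gene symbol in both deposited read-count tables, where they are 10 of 16747 entries. All 10 passed the filter on low counts in every comparison. RNA was sequenced from whole Drosophila melanogaster at 5 days of age, in 6 groups of 3 libraries each (18 libraries). INT and NINT flies were genetically heterogenous by their labels and were taken at generation 12 (F12). The F0 flies were generation 0. Their label lists 10 strains: Canton-S, Oregon-R-C, Harwich, BER_2, DGRP-100, Wild_1A, flare3 (flr3), multiple wing hairs (mwh), Oregon R flare3 (ORR, flr3) and w1118. Females and males were sequenced separately in each of these lines. What INT and NINT stand for is not written in the labels, and the title of the series names intelligence and longevity. Whether replicates came from separate cultures, and how many flies a library holds, is not stated either, so p-values measure the spread between these libraries, which may be technical.

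In the fly, 2 main routes lead from peptidoglycan to antimicrobial peptides. Peptidoglycan with diaminopimelic acid, typical of Gram-negative bacteria, is bound by PGRP-LC on the cell surface and PGRP-LE inside the cell, and both feed the Imd pathway and its NF-κB factor Relish. Peptidoglycan with lysine is bound in the hemolymph by PGRP-SA, which acts with GNBP1 upstream of the Toll pathway. The amidases cut peptidoglycan into pieces that no longer signal, and are known in the gut and fat body for damping the Imd response.

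Libraries held 31605198 to 58332629 counts, of which the 10 PGRP genes took 0.0147% to 0.0633%. Ribosomal RNA took 1.84% to 8.8% of the counts in males and 5.94% to 36.26% in females. Marker genes fitted the labelled sexes: 12 ovary genes summed to 8334 to 23820 counts per 1000000 (CPM) in females and 142 to 1538 CPM in males, and 10 accessory gland genes to 11.7 to 112 CPM in females and 3051 to 9396 CPM in males. No pair of replicates agreed within sampling noise as a mean over genes (mean chi-square per gene of 50.7 to 1170 for the pairs). Some libraries stood apart from their group. INT male 3 had a hemocyte marker sum of 628 CPM, against 255 and 351 CPM in INT males 1 and 2, and an accessory gland sum of 3843 CPM against 9010 and 9396 CPM. F0 females 1 and 2 had muscle marker sums of 70650 and 48240 CPM, against 9851 CPM in F0 female 3. INT female 3 had a muscle marker sum of 25928 CPM, against 7549 and 7917 CPM in INT females 1 and 2. F0 male 1 had a muscle marker sum of 16402 CPM, against 8734 and 8272 CPM in F0 males 2 and 3. Its muscle gene Act88F was at 1391.91 CPM, against 9.44 and 11.7 CPM there. Yolk protein genes (Yp1 to Yp3) summed to 1177.6 and 563.2 CPM in F0 males 1 and 2 and to 808.8 and 982.7 CPM in NINT males 2 and 3, against 6.8 to 136 CPM in the other males. The Act88F and yolk values are CPM of all counts, without the scaling used for the marker sums. Levels below are CPM with library sizes scaled by the TMM method over the 18 libraries, listed for replicates 1, 2 and 3 in that order, and levels of different genes are set beside each other only per kb of the gene length in the tables.

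The amidases made up most of the summed level per kb of the 10 PGRP genes in each library, and more of it in females than in males. Their share was 84.8% to 92.1% in INT females, 88.9% to 89.5% in NINT females and 92.8% to 96.9% in F0 females. Male shares were 56.6% to 75.8% in INT, 62.2% to 64.9% in NINT and 74.6% to 81.1% in F0. Shares in females and males did not overlap within any line. PGRP-SC1b, PGRP-LD and PGRP-SB2 are not in these sums. PGRP-SC1b averaged 96.3, 60.6 and 151 CPM per kb in INT, NINT and F0 females, and 26.5, 17.5 and 17.3 in males. PGRP-LD averaged 15.8, 14.2 and 13.3 CPM per kb in females and 9.18, 9.23 and 13.2 in males of these lines. PGRP-SC1a and PGRP-SC2, which are known as gut amidases, held most of the amidase level except in NINT males. Together they took 21.6% to 31.1% of the summed PGRP level per kb in NINT males, 33.8% to 61.4% in INT males and 59.8% to 73.7% in F0 males. The 6 receptors and regulators summed to 118 to 138 CPM per kb in NINT males, above the 53.9 to 90.0 CPM per kb in INT males and the 57.6 to 76.3 CPM per kb in F0 males. In females that sum overlapped between the lines, at 31.0 to 36.4 CPM per kb in INT, 31.4 to 38.1 in NINT and 35.2 to 40.1 in F0.

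**Figure D1:**
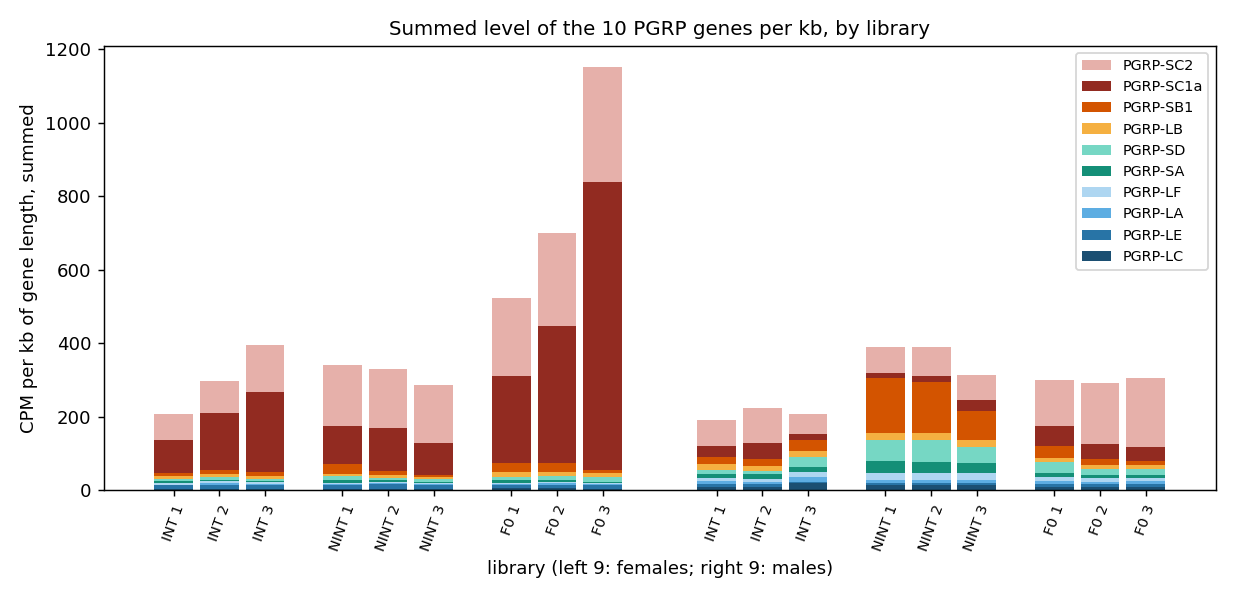
Stacked bars of the level of each of the 10 PGRP genes in CPM per kb of gene length (y axis) in each of the 18 libraries (x axis, females left, males right; INT, NINT and F0 replicates 1 to 3). The PGRP-SC1a and PGRP-SC2 segments fill most of every female bar, and the PGRP-SB1 and PGRP-SD segments are widest in the NINT males.

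Ranked per kb among the 10 genes alone, PGRP-SC2 and PGRP-SC1a took the first places in 5 of the 6 groups. The order below them changed with sex. In INT females the means were 154 CPM per kb for PGRP-SC1a and 94.8 for PGRP-SC2, which overlapped, and the next gene, PGRP-LE, was at 10.2. NINT females had 162 CPM per kb of PGRP-SC2 and 102 of PGRP-SC1a, and F0 females had 464 of PGRP-SC1a and 259 of PGRP-SC2. Of the 6 receptors and regulators, PGRP-LE, the intracellular sensor, had the highest level per kb in INT females (10.2) and NINT females (11.5). PGRP-SD followed at 6.56 and 8.97, and PGRP-LD, outside the 10 genes, was above both. Among males PGRP-LE was the lowest of the 10 genes in INT (6.64 CPM per kb) and NINT (5.33), and the second lowest in F0 (8.03). NINT males were the one group led by another gene: PGRP-SB1 averaged 122 CPM per kb there, with a range of 78.5 to 149 that overlapped the 68.2 to 79.8 of PGRP-SC2. PGRP-SD followed in NINT males at 54.6 CPM per kb, apart from its neighbours in the order. In INT males the 8 genes from PGRP-SC1a (29.0 CPM per kb) to PGRP-LA (8.46) each overlapped the next in the order.

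**Figure D2:**
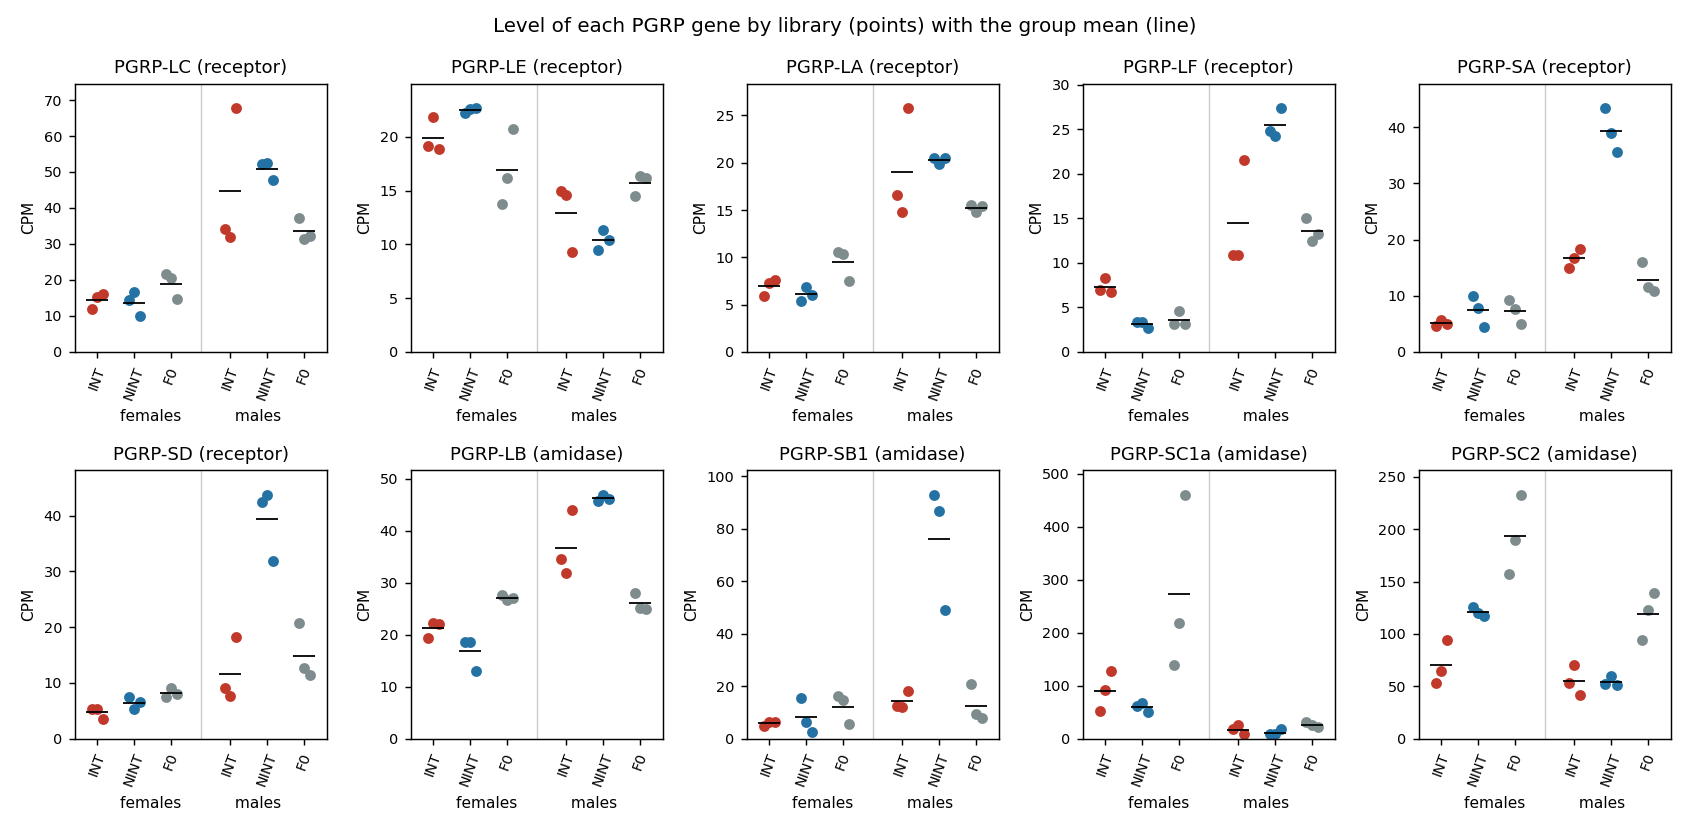
Level in CPM (y axis) of each PGRP gene in the 18 libraries, 1 panel per gene, with points for libraries and lines for the group means; females are left and males right, each in the order INT, NINT and F0. The 3 NINT males lie above all other libraries for PGRP-SA, PGRP-SB1, PGRP-SD and PGRP-LF, and PGRP-SC1a is highest in F0 female 3, at 461 CPM.

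PGRP-LC (dm6, chromosome 3L, 9338810 to 9348336, 10 annotated transcripts) encodes the transmembrane receptor of the Imd pathway. It was at 12, 15.2 and 16.2 CPM in INT females, 14.4, 16.5 and 9.96 CPM in NINT females, and 21.7, 20.5 and 14.6 CPM in F0 females. Males had 34.3, 32.0 and 67.8 CPM in INT, 52.1, 52.6 and 47.9 CPM in NINT, and 37.1, 31.4 and 32.1 CPM in F0. All 9 males lay above all 9 females, and INT male 3 lay above every other library. PGRP-LE (X, 15801153 to 15803880) had the opposite order of the sexes in INT and NINT. Its level was 19.1, 21.8 and 18.9 CPM in INT females and 22.2, 22.6 and 22.7 CPM in NINT females, against 15, 14.5 and 9.32 CPM in INT males and 9.51, 11.3 and 10.4 CPM in NINT males. In F0 the sexes overlapped, at 13.8, 16.1 and 20.8 CPM in females and 14.5, 16.4 and 16.1 CPM in males.

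PGRP-LA and PGRP-LF lie next to PGRP-LC in a row on chromosome 3L, and both act on the Imd pathway without cutting peptidoglycan. PGRP-LA (9334332 to 9337936) is known as a modulator of the pathway in barrier epithelia. It was at 5.95, 7.3 and 7.6 CPM in INT females, 5.33, 6.89 and 6.01 CPM in NINT females and 10.6, 10.3 and 7.5 CPM in F0 females, and males ranged from 14.8 to 25.8 CPM with the highest value in INT male 3. PGRP-LF (9349609 to 9351489) encodes a membrane protein that binds PGRP-LC and inhibits it. It was at 6.97, 8.24 and 6.72 CPM in INT females, 3.39, 3.34 and 2.67 CPM in NINT females, and 3.08, 4.53 and 3.09 CPM in F0 females, so the INT females were apart from the other females. In males the NINT libraries were apart, at 24.8, 24.2 and 27.4 CPM, against 10.8, 10.9 and 21.5 CPM in INT and 15, 12.5 and 13.2 CPM in F0. The ratio of the inhibitor PGRP-LF to its target PGRP-LC, both per kb, was 1.09 to 1.52 in INT females, 0.532 to 0.706 in NINT females and 0.372 to 0.582 in F0 females. Among males the ratio was 0.832 to 0.895 in INT, 1.21 to 1.5 in NINT and 1.05 to 1.08 in F0. INT thus had the highest ratio among females and the lowest among males, with no overlap with either other line. An exon of PGRP-LF shares 602 bases with UGP on the opposite strand. UGP was at 131 to 431 CPM, and no source used here gives the strand setting of the counts, so reads from these bases cannot be told apart.

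PGRP-SA and PGRP-SD encode secreted recognition proteins of the hemolymph, PGRP-SA upstream of Toll and PGRP-SD linked to both Toll and Imd signalling. PGRP-SA (X, 11561643 to 11562779) was at 14.9, 16.7 and 18.3 CPM in INT males, 43.4, 38.9 and 35.6 CPM in NINT males, and 15.9, 11.6 and 10.9 CPM in F0 males. NINT males stood apart, and INT and F0 males overlapped. In females it was at 4.6, 5.68 and 5.02 CPM in INT, 10, 7.89 and 4.34 CPM in NINT, and 9.27, 7.56 and 4.88 CPM in F0, where all 3 lines overlapped. PGRP-SD (3L, 7651180 to 7651900) was likewise highest in NINT males, and was at 9.1, 7.59 and 18.3 CPM in INT, 42.5, 43.8 and 31.8 CPM in NINT, and 20.7, 12.6 and 11.4 CPM in F0. INT and F0 males overlapped. Its level in females was 5.35, 5.39 and 3.45 CPM in INT, 7.53, 5.26 and 6.62 CPM in NINT, and 7.51, 9.09 and 8.09 CPM in F0. INT females lay below all F0 females and overlapped the NINT females. PGRP-SD shares 35 exon bases with CG7492 on the opposite strand.

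PGRP-LB and PGRP-SB1 are the amidases outside the PGRP-SC cluster. PGRP-LB (3R, 11452849 to 11460552, minus strand) encodes the main amidase known to restrain Imd signalling. It was at 34.5, 31.8 and 43.9 CPM in INT males, 45.8, 46.9 and 46 CPM in NINT males, and 28.1, 25.2 and 24.9 CPM in F0 males, which put the lines in an order with no overlap. The order differed in females, at 19.4, 22.3 and 22.1 CPM in INT, 18.6, 18.7 and 13 CPM in NINT, and 27.6, 26.6 and 27.1 CPM in F0. PGRP-SB1 (3L, 16727299 to 16727989, minus strand) encodes a secreted amidase. It was at 12.4, 12 and 18.2 CPM in INT males, 92.9, 86.5 and 48.9 CPM in NINT males, and 20.7, 9.44 and 7.66 CPM in F0 males. The NINT males were apart from the rest, and their lowest value was above the highest of any other library. In females PGRP-SB1 was at 4.88, 6.18 and 6.38 CPM in INT, 15.4, 6.51 and 2.62 CPM in NINT, and 16.1, 14.8 and 5.59 CPM in F0, and the 3 lines overlapped.

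PGRP-SC1a (2R, 8709733 to 8710320) and PGRP-SC2 (2R, 8716950 to 8717695) lie near each other with PGRP-SC1b between them. PGRP-SC1a was at 52.9, 91.1 and 128 CPM in INT females, 60.7, 68.0 and 51.1 CPM in NINT females, and 139, 218 and 461 CPM in F0 females. F0 females lay above both other lines, and F0 female 3 lay above every other library. In males its level was 17.6, 25 and 8.6 CPM in INT, 8.27, 8.74 and 17.3 CPM in NINT, and 31.8, 25.1 and 22.4 CPM in F0. PGRP-SC1a and PGRP-SC1b are near-identical copies, and no source used here tells how reads that match both were counted, so the level of each is uncertain. PGRP-SC2 was at 52.8, 64.9 and 94.5 CPM in INT females, 125, 120.0 and 117 CPM in NINT females, and 157, 190.0 and 233 CPM in F0 females, with no overlap between the lines. In males it was at 52.7, 70.3 and 41.3 CPM in INT, 52.3, 59.5 and 50.9 CPM in NINT, and 93.8, 123 and 139 CPM in F0. F0 males were apart from both later lines, which overlapped each other.

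INT males were set against NINT males to see how the generation 12 lines differ in that sex. PGRP-SA, PGRP-SD, PGRP-SB1, PGRP-LF and PGRP-LB were lower in each INT male than in each NINT male, but none of the 10 genes passed the test. edgeR's quasi-likelihood test, adjusted over 15051 genes by the Benjamini-Hochberg method at a threshold of 0.05, called 0 of 10 members where 0.0399% of all genes were called. An unadjusted p under 0.05 was reached by 3 of the 6 receptors and regulators and 1 of the 4 amidases, and by 2473 of all 15051 genes. PGRP-SB1 averaged 14.2 ± 3.46 CPM in INT males and 76.1 ± 23.8 CPM in NINT males (SD, n = 3 each), at a log2 fold change of -2.46 with an SE of 0.45 (adjusted p = 0.122). PGRP-SD averaged 11.7 ± 5.81 CPM in INT and 39.4 ± 6.57 CPM in NINT males, at a log2 fold change of -1.77 with an SE of 0.42 (adjusted p = 0.158). For PGRP-SA the means were 16.7 ± 1.75 CPM in INT and 39.3 ± 3.95 CPM in NINT males, at a log2 fold change of -1.28 with an SE of 0.21 (adjusted p = 0.104). PGRP-LF had a log2 fold change of -0.84 (adjusted p = 0.254) and PGRP-LB one of -0.37 (adjusted p = 0.348). Among the other members PGRP-LC was at -0.20, PGRP-LA at -0.12, PGRP-SC2 at -0.05, PGRP-LE at 0.25 and PGRP-SC1a at 0.50. Groups without overlap were found for 19.6% of all genes, and for 9.07% with INT as the lower line, the direction of the 5 members. The median log2 fold change was -0.52 for the 6 receptors and regulators and -0.21 for the 4 amidases, beside 0.01 for all genes.

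Leaving out INT male 3 changed this comparison. Without it, edgeR called 8 of the 10 members, where it then called 26.1% of all genes. PGRP-SB1 fell by 2.75 on the log2 scale (adjusted p = 0.0101), PGRP-SD by 2.34 (0.00539), PGRP-SA by 1.42 (0.00678) and PGRP-LF by 1.33 (0.00504). PGRP-LC, PGRP-LB and PGRP-LA also fell, by 0.72, 0.58 and 0.47, and PGRP-LE rose by 0.41, while PGRP-SC1a and PGRP-SC2 were not called. DESeq2 on all libraries called 3 members, PGRP-SA, PGRP-SD and PGRP-SB1, each lower in INT, where it called 6.21% of all genes. All 12 hemocyte markers had negative fold changes in INT males with all libraries, with a sum of 255 to 628 CPM in INT males and 507 to 619 CPM in NINT males, and fat body markers summed to 2917 to 5050 CPM in INT and 4651 to 5850 CPM in NINT males. Ovary markers moved too, with 11 of 12 below 0 in INT males, and accessory gland markers, with 10 of 10 above 0. None of the hemocyte markers was at 0 in any library, the fat body marker Fbp1 was at 0 in an INT male, and the part of these cells in the PGRP differences was not tested. In whole flies, fewer cells of a type and less RNA per cell cannot be told apart.

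In females INT and NINT differed in the Imd inhibitor PGRP-LF. It averaged 7.31 ± 0.813 CPM in INT females and 3.14 ± 0.401 CPM in NINT females (SD, n = 3 each), and rose by 1.23 on the log2 scale (2.34-fold, SE 0.23, edgeR adjusted p = 0.0474). This was 1 of 10 members called, where 0.995% of all genes were called. The call was lost without any 1 of the 6 libraries, with log2 fold changes of 1.12 to 1.28 and adjusted p of 0.0849 to 0.206. PGRP-SC2 averaged 70.7 ± 21.4 CPM in INT females and 121 ± 4.09 CPM in NINT females, a log2 fold change of -0.77 (adjusted p = 0.157), and the libraries of these groups did not overlap. PGRP-LB (0.35) and PGRP-LE (-0.17) also did not overlap and were not called. These 4 members compare with 37.7% of all genes that did not overlap. PGRP-SC1a (0.61), PGRP-LA (0.20), PGRP-LC (0.10), PGRP-SD (-0.44), PGRP-SB1 (-0.48) and PGRP-SA (-0.53) overlapped between the lines. The class medians were -0.03 for receptors and regulators and -0.07 for amidases, beside 0.01 for all genes. All 10 muscle markers lay above 0 (median 1.69, 0 called, 8 at an unadjusted p under 0.05), with the highest sum in INT female 3. Such an unadjusted p was reached by 1978 of all 13169 genes. Of the hemocyte markers 9 of 12 lay above 0, and 1 was called higher, PPO2 at 2.30 (adjusted p = 0.0263). The part of these cells was not tested. UGP, which shares bases with PGRP-LF, had a log2 fold change of 0.61 (adjusted p = 0.157).

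As a mean over both sexes, the recognition proteins PGRP-SD and PGRP-SA were lower in INT than in NINT. PGRP-SD fell by 1.10 on the log2 scale (SE 0.22, edgeR adjusted p = 0.0252) and PGRP-SA by 0.89 (SE 0.20, adjusted p = 0.0348). They were 2 of 10 members called in a fit of the 18 libraries, where 1.95% of all genes were called. In males PGRP-SD was at -1.77 and PGRP-SA at -1.28, and in females they were at -0.44 and -0.53. Neither was called within a sex, and in females both overlapped between the lines. PGRP-SB1 had the largest fold change of the members, -1.46, and was not called (adjusted p = 0.0643). PGRP-SC2 was at -0.38, PGRP-LC at -0.05, PGRP-LB at 0.01, PGRP-LA at 0.05, PGRP-LE at 0.07, PGRP-LF at 0.20 and PGRP-SC1a at 0.59. The PGRP-SD call was kept without INT male 3 or INT female 1 and lost without any of the other 10 libraries (adjusted p 0.0571 to 0.0938), and the PGRP-SA call was kept without INT male 3 or NINT female 3 and lost without any of the other 10 (0.0574 to 0.0881). CG7492, which shares 35 exon bases with PGRP-SD, was itself called, at -0.38 (adjusted p = 0.0308). Ovary markers lay below 0 for 11 of 12 genes (median -1.70), of which 2 were called, the yolk protein genes Yp1 and Yp2. Muscle markers lay above 0 for 10 of 10 (median 1.05), of which 1 was called. Within the sexes, the ovary median was -3.48 in males and -0.23 in females, and the muscle median was 0.26 in males and 1.69 in females. Fat body and midgut markers had 1 call each, Tsf1 at -1.21 and Npc1b at -1.02, and the part of these tissues was not tested.

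PGRP-LF was the only member whose INT and NINT difference was called as different between the sexes. Its log2 fold change was 1.23 in females and -0.84 in males, and the test of the difference between the sexes gave 2.04 (SE 0.35, edgeR adjusted p = 0.0322). This was 1 of 10 members called, where 0.268% of all genes were called. PGRP-SB1 had a difference of 1.93 (adjusted p = 0.318), PGRP-SD one of 1.30 (0.241) and PGRP-LB one of 0.68 (0.194). For PGRP-SA it was 0.70, for PGRP-LA 0.29, for PGRP-LC 0.28, for PGRP-SC1a 0.02, for PGRP-LE -0.49 and for PGRP-SC2 -0.79, none of them called. The PGRP-LF call was kept only without INT male 3 (2.44, adjusted p = 0.00145), where PGRP-SD (1.78, adjusted p = 0.0277) and PGRP-LB (0.81, adjusted p = 0.0347) were called as well. It was lost without any of the other 11 libraries, with log2 values down to 1.70 and adjusted p of 0.0579 to 0.164. All 12 hemocyte markers (median 1.15), all 10 muscle markers (1.26) and 11 of 12 ovary markers (3.51) had a positive difference between the sexes, and their part in the PGRP-LF value was not tested. UGP had a difference of 1.14 (adjusted p = 0.155).

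**Figure D3:**
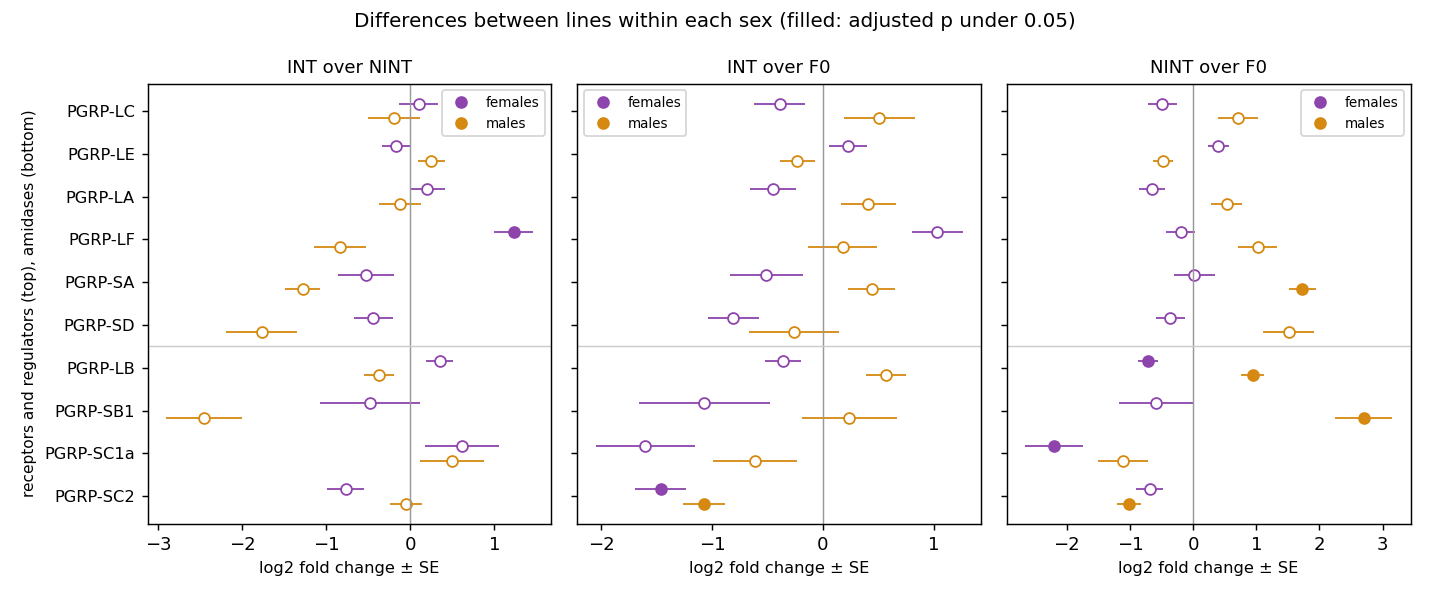
Log2 fold change with its SE (x axis) of each PGRP gene (y axis) for INT over NINT, INT over F0 and NINT over F0, in females and males; filled points have an adjusted p under 0.05. PGRP-LF lies right of 0 in females and left of 0 in males for INT over NINT, and PGRP-SC1a and PGRP-SC2 lie left of 0 in both sexes in both comparisons with F0.

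The comparisons with F0 set the generation 12 lines against generation 0, and INT and NINT are compared with the same F0 libraries. In NINT males the Toll recognition protein PGRP-SA and the amidases PGRP-SB1 and PGRP-LB rose, and the gut amidase PGRP-SC2 fell. PGRP-SB1 averaged 76.1 ± 23.8 CPM in NINT males and 12.6 ± 7.06 CPM in F0 males and rose by 2.70 on the log2 scale (6.51-fold, SE 0.45, edgeR adjusted p = 0.0177). PGRP-SA averaged 39.3 ± 3.95 CPM in NINT males and 12.8 ± 2.73 CPM in F0 males and rose by 1.73 (3.31-fold, SE 0.22, adjusted p = 0.00693). PGRP-LB rose by 0.94 (SE 0.18, adjusted p = 0.0279), and PGRP-SC2 fell by 1.01 (SE 0.19, adjusted p = 0.0271). These are 4 of 10 members, 3 higher and 1 lower, where 5.04% of all genes were called, 2.53% higher and 2.51% lower. All 10 members had groups that did not overlap, 7 higher and 3 lower in NINT, where 48.7% of all genes did not overlap, 18.8% higher and 29.9% lower. The uncalled members were PGRP-SD at 1.51 (adjusted p = 0.0697), PGRP-LF at 1.02 (0.0859), PGRP-LC at 0.71 (0.16), PGRP-LA at 0.53 (0.178), PGRP-LE at -0.48 (0.0942) and PGRP-SC1a at -1.11 (0.106). The median was 0.87 for receptors and regulators and -0.04 for amidases, beside 0.00 for all genes. The PGRP-SA call held without each of the 6 libraries in turn, whereas PGRP-SB1 lost its call without NINT male 1, NINT male 2, F0 male 2 or F0 male 3 (adjusted p 0.063 to 0.0871). PGRP-LB (0.0887 to 0.117) and PGRP-SC2 (0.0819 to 0.114) lost theirs without any library but F0 male 1. All 12 hemocyte markers lay above 0 and 0 were called, with a sum of 507 to 619 CPM in NINT males and 295 to 350 CPM in F0 males, and 7 of them had an unadjusted p under 0.05, as 4804 of all 15051 genes had. Midgut markers had 3 calls, all higher in NINT males (Jon25Bi at 1.95, Jon44E at 1.66 and Npc1b at 1.80), fat body markers had 1 higher (Tsf1 at 1.65) and 1 lower (Npc2d at -4.30), and all 10 muscle markers lay below 0 (median -0.67, 0 called). Their part was not tested.

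INT males differed from F0 males in 1 of 10 members, where 1.82% of all genes were called. PGRP-SC2 averaged 54.8 ± 14.6 CPM in INT males and 119 ± 23 CPM in F0 males and fell by 1.07 on the log2 scale (2.09-fold lower, SE 0.19, edgeR adjusted p = 0.0328). The call was lost without INT male 1 (adjusted p = 0.0894), F0 male 2 (0.13) or F0 male 3 (0.105). PGRP-LB was at 0.57 (adjusted p = 0.147) with groups that did not overlap, 1 of 2 such members where 22.2% of all genes did not overlap. The receptors and regulators all overlapped between these groups: PGRP-LC was at 0.51, PGRP-SA at 0.44, PGRP-LA at 0.41, PGRP-LF at 0.18, PGRP-LE at -0.23 and PGRP-SD at -0.26. PGRP-SB1 was at 0.24 and PGRP-SC1a at -0.61. INT male 3 moved several of these uncalled values: without it PGRP-LC was at -0.01, PGRP-LA at 0.05, PGRP-LF at -0.31, PGRP-LE at -0.07, PGRP-SD at -0.83 and PGRP-LB at 0.36. Midgut markers summed to 7709 to 9493 CPM in INT males and 7308 to 9689 CPM in F0 males, and their median log2 fold change was 0.49, with 5 of 12 at an unadjusted p under 0.05 and 1 called higher, Jon44E at 2.38. Ovary markers lay below 0 for 12 of 12 genes (median -3.80, 0 called, 9 at an unadjusted p under 0.05). The part of these tissues in the PGRP-SC2 value was not tested.

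In females the 4 amidases had negative fold changes against F0 in both lines. INT females had lower PGRP-SC2, at 70.7 ± 21.4 CPM against 193 ± 38 CPM in F0 females, a fall by 1.46 on the log2 scale (2.75-fold lower, SE 0.23, edgeR adjusted p = 0.0188). This was 1 of 10 members called, where 2.12% of all genes were called. PGRP-SC1a was at -1.60 (adjusted p = 0.122), PGRP-SB1 at -1.07 (0.35), PGRP-LB at -0.36 (0.289), PGRP-SD at -0.81 (0.13) and PGRP-LF at 1.03 (0.0637). PGRP-SA was at -0.51, PGRP-LA at -0.45, PGRP-LC at -0.39 and PGRP-LE at 0.23. Groups did not overlap for 5 members, PGRP-LF above and PGRP-SD, PGRP-LB, PGRP-SC1a and PGRP-SC2 below F0, where 18.8% of all genes did not overlap. In NINT females PGRP-SC1a averaged 60.0 ± 8.49 CPM, against 273 ± 168 CPM in F0 females, and fell by 2.20 (4.6-fold lower, SE 0.46, adjusted p = 0.016), and PGRP-LB averaged 16.8 ± 3.25 CPM, against 27.1 ± 0.521 CPM, and fell by 0.71 (SE 0.16, adjusted p = 0.0214). These are 2 of 10 members, where 22.5% of all genes were called, so the share of members was near that of all genes. Groups did not overlap for 5 members, where 39.4% of all genes did not overlap. PGRP-LA (-0.65, adjusted p = 0.0508) and PGRP-SC2 (-0.69, adjusted p = 0.0543) missed the threshold narrowly, and PGRP-SB1 (-0.59), PGRP-LC (-0.49), PGRP-SD (-0.36), PGRP-LF (-0.20), PGRP-SA (0.02) and PGRP-LE (0.40) were not called. The PGRP-SC2 call in INT females was lost without INT female 1, INT female 2 or F0 female 2 (adjusted p 0.0702 to 0.0953). In NINT females the PGRP-SC1a call was lost without any 1 of the NINT females (0.0577 to 0.0746), and the PGRP-LB call without any of them or F0 female 2 (0.0524 to 0.0733). The median over amidases was -1.26 in INT and -0.70 in NINT females, beside -0.01 for all genes in both.

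F0 female 3, which had the highest PGRP-SC1a, moved the counts of both female comparisons with F0. Without it 5 members were called in INT against F0 females, where 32.2% of all genes were called, and 5 in NINT against F0 females, where 51.1% were called. PGRP-SC1a was then at -0.98 in INT females (adjusted p = 0.0539) and at -1.58 in NINT females (adjusted p = 0.00504), and PGRP-SC2 at -1.29 (0.00795) and -0.53 (0.0747). In the fit of the females, which these comparisons use, F0 females had TMM scaling factors of 0.497 to 0.926, against 1.35 to 1.38 in NINT females. Midgut markers summed to 7177 to 8347 CPM in INT females, 6050 to 6941 CPM in NINT females and 6730 to 11045 CPM in F0 females, with the highest sum in F0 female 3, and 9 of the 12 lay below 0 in each line. These marker values are from the fit with F0 female 3. There 3 midgut markers were called lower in INT against F0 females (median -0.61), among them Amy-p at -1.68, where 2.12% of all genes were called. In NINT against F0 females 6 were called lower, where 22.5% of all genes were called. In the NINT comparison 10 of 10 muscle and 5 of 12 hemocyte markers were also called lower. Their part in the amidase values was not tested.

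Females differed from males in most members, as in most genes. The genes PGRP-LF, PGRP-LC, PGRP-LA, PGRP-SA and PGRP-SD were lower in females in each of the 3 lines, and PGRP-SC1a was higher. PGRP-SC1a averaged 90.7 ± 37.6 CPM in INT females and 17.1 ± 8.19 CPM in INT males (log2 2.41, SE 0.48, edgeR adjusted p = 0.000364), 60.0 ± 8.49 and 11.4 ± 5.06 CPM in NINT females and males (2.39), and 273 ± 168 and 26.4 ± 4.85 CPM in F0 females and males (3.37). These calls held without each library in turn. PGRP-SC2 was higher in NINT females (1.16) and F0 females (0.70) than in males, and not called in INT (0.37, adjusted p = 0.164). Of the 6 receptors and regulators, PGRP-LE alone was called higher in females, in INT (0.62) and NINT (1.11), and was at 0.11 in F0 (adjusted p = 0.629). PGRP-LF had the largest fold change among the receptors in NINT, where it was 8.12-fold lower in females (3.14 ± 0.401 CPM, against 25.5 ± 1.67 CPM in males), with log2 values of -0.98 in INT, -3.02 in NINT and -1.93 in F0. PGRP-SB1 was lower in females in NINT (-3.22, adjusted p = 0.000159) and just under the threshold in INT (-1.29, adjusted p = 0.0484), a call lost without 5 of the 6 libraries, and PGRP-LB was lower in INT (-0.79) and NINT (-1.46). In F0 these amidases were at -0.05 and 0.06 and were not called.

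The members called between females and males numbered 9 of 10 in INT, 10 of 10 in NINT and 7 of 10 in F0. In the same lines 69.6%, 73.5% and 61.7% of all genes were called, so most genes were called too. Of all genes, 30.5% were called higher and 39% lower in INT females, 30.2% higher and 43.3% lower in NINT females, and 28.9% higher and 32.8% lower in F0 females. Of the 6 receptors and regulators, 5 were called lower in females in each line and PGRP-LE alone was called higher in INT and NINT. Of the 4 amidases, 1 was called higher and 2 lower in INT, 2 higher and 2 lower in NINT, and 2 higher and 0 lower in F0. The median log2 of receptors and regulators was -1.38 in INT, -2.15 in NINT and -0.83 in F0, beside -0.20, -0.40 and -0.05 for all genes, and that of the amidases was -0.21, -0.15 and 0.38. Without F0 male 1 or without F0 female 3, 3 members were called in F0 in place of 7, where 59.6% and 59.7% of all genes were called: PGRP-LC, PGRP-SA and PGRP-SD lost their calls in both cases, PGRP-LA without F0 male 1 and PGRP-SC2 without F0 female 3. The ovary makes up a large part of a female fly, and ovary markers were called higher in females for 12 of 12 genes in INT and 11 of 12 in NINT and in F0. Their part in the PGRP values was not tested.

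**Figure D4:**
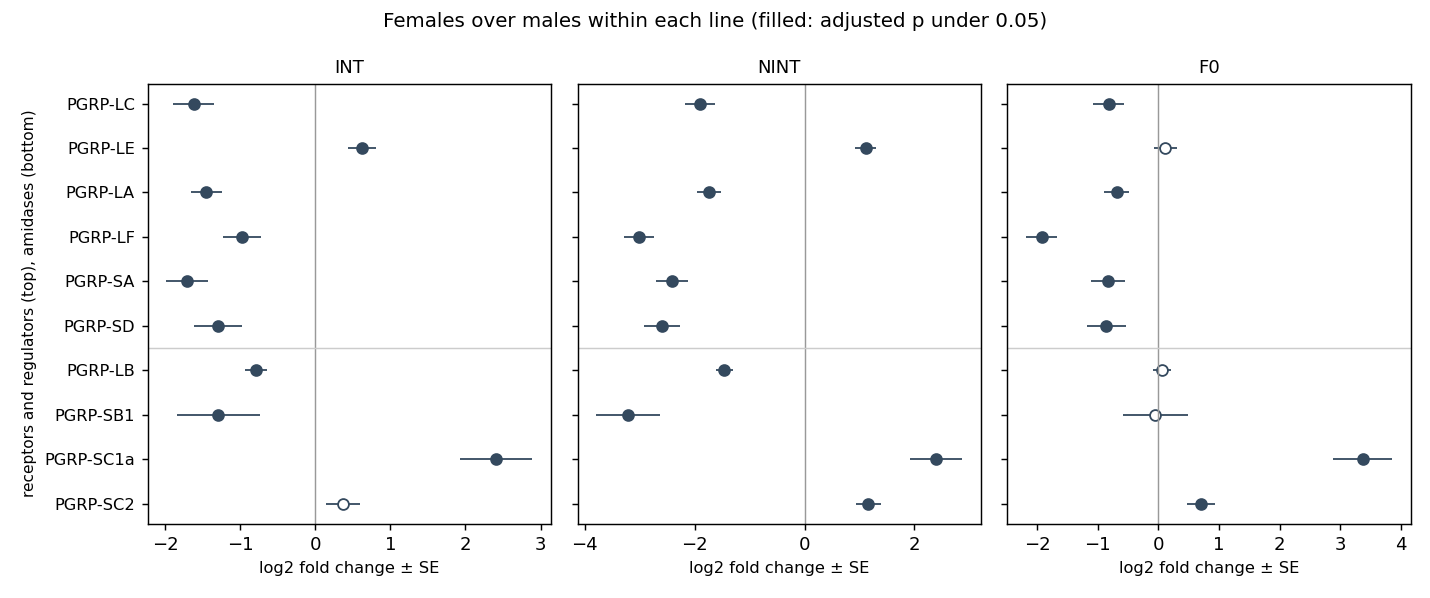
Log2 fold change of females over males with its SE (x axis) for each PGRP gene (y axis) in INT, NINT and F0; filled points have an adjusted p under 0.05. PGRP-SC1a lies furthest right in each line, and PGRP-LF, PGRP-LC, PGRP-LA, PGRP-SA and PGRP-SD lie left of 0 in each.

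Among males, the antimicrobial peptide genes downstream of the receptors had their highest sums in NINT, as PGRP-SA, PGRP-SB1 and PGRP-SD had their highest levels. The 12 Imd target peptides, such as diptericins, attacins and cecropins, summed to 97.9 to 229 CPM in INT males, 428 to 898 CPM in NINT males and 50.5 to 270 CPM in F0 males. All 12 had negative fold changes in INT against NINT males (median -2.19) and 0 were called. An unadjusted p under 0.05 was found for 7 of them and for 2473 of all 15051 genes. The 15 Toll target peptides, mostly bomanins, also were all below 0 (median -1.37). Of these, 2 were called, where 0.0399% of all genes were called: BomS5 at -2.07 and BomBc1 at -2.27 (both adjusted p = 0.0297). In NINT against F0 males all 12 Imd targets and all 15 Toll targets lay above 0, with medians of 2.77 and 1.23. Called Imd targets were the cecropins CecA1 at 1.58 (adjusted p = 0.00372) and CecA2 at 1.99 (adjusted p = 0.0178), and 6 Toll targets were called, where 5.04% of all genes were called, among them BomBc1 at 1.78 (adjusted p = 0.00981), BomS1 at 1.58 (0.013), BomS5 at 1.13 (0.0272) and BomBc3 at 1.14 (0.0274). In INT against F0 males, where 1.82% of all genes were called, CecA1 was called at 1.23 (adjusted p = 0.0104) and BomT3 at -1.02 (adjusted p = 0.0262).

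In females the same lists were lower in INT than in NINT without calls. All 12 Imd targets (median -1.74) and all 15 Toll targets (median -0.88) were below 0 and 0 were called. An unadjusted p under 0.05 was found for 0 and 5 of them, and for 1978 of all 13169 genes. The NINT females were spread widely, with Imd target sums of 206, 76.4 and 13.8 CPM, against 15.9, 50.3 and 30.8 CPM in INT females and 73.4, 56.1 and 45.5 CPM in F0 females. NINT female 1 also had the highest PGRP-SA and PGRP-SB1 of the NINT females, as F0 male 1 did among F0 males, whose Imd target sums were 270, 50.5 and 54.8 CPM. Over both sexes 4 of the 15 Toll targets were called lower in INT, where 1.95% of all genes were called. They were BomS5 at -1.69 (adjusted p = 0.0198), BomS1 at -1.38 (0.0391), BomT3 at -0.94 (0.0308) and Dso2 at -1.23 (0.0493). Against F0 females, 2.12% of all genes were called in INT and 22.5% in NINT. BomS6 was called there in INT (-1.19) and NINT (-0.94). CecA2 was called in NINT at 5.01, a gene that was at 0.108 to 3.74 CPM in NINT females and 0 to 0.0918 CPM in F0 females.

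The signalling genes between receptors and peptides had no calls between INT and NINT. Of 15 Imd signalling genes, 10 Imd negative regulators and 20 Toll pathway genes, 0 were called in INT against NINT in males, in females and over both sexes, with medians of -0.13, -0.08 and -0.22 in males and 0.04, -0.05 and -0.20 in females. An unadjusted p under 0.05 was reached by 3, 0 and 1 of them in males, 1, 0 and 1 in females and 5, 2 and 2 over both sexes. Among all genes it was reached by 2473 of 15051 in males, 1978 of 13169 in females and 3165 of 15304 over both sexes. In NINT against F0 males all 20 Toll pathway genes lay above 0 (median 0.65) and 0 were called, with 4 at an unadjusted p under 0.05. Such a p was reached by 4804 of all 15051 genes there. In NINT against F0 females, where 22.5% of all genes were called, the ubiquitin ligase gene Diap2 rose (0.77) and the kinase gene bsk fell (-0.51) in the Imd list, the regulator sick fell (-1.39), and in the Toll list spirit (1.20), pll (0.81) and Traf6 (0.51) rose and grass (-1.77) and SPE (-0.99) fell. Between the sexes the Imd signalling genes were called about as often as all genes (69.6% in INT, 73.5% in NINT and 61.7% in F0). Of the 15, 8 were called higher and 2 lower in INT females, 8 and 3 in NINT females, and 6 and 4 in F0 females, among them the ubiquitin-conjugating enzyme gene ben (1.05, 1.29 and 0.98) and akirin (1.44, 1.73 and 1.15). In the Toll list the receptor gene Tl was higher in females in INT (2.74), NINT (2.68) and F0 (2.66), as was spz (1.6, 1.59 and 1.2), which encodes its ligand. Of the negative regulators, the deubiquitinase gene CYLD was lower in females (-1.51, -1.45 and -1.86), and POSH (1.9, 1.8 and 1.54) and zfh1 (1.65, 1.37 and 2.07) were higher. The Imd targets were called lower in females for 3 genes in INT, 8 in NINT and 2 in F0 and higher for 0, with CecA1 at -6.27, -4.54 and -4.48. Of the Toll targets, 1 was called higher and 8 lower in INT females, 0 and 12 in NINT females and 1 and 0 in F0 females, and the gene called higher was Drs (3.33 in INT, 2.10 in F0).

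Among themselves the members fell into patterns across the 18 libraries, taken as deviations of log2 CPM from the mean of the own sex. These correlations are descriptions over libraries that share lines and scaling. PGRP-SA and PGRP-SB1 had r = 0.96 (0.98 in males, 0.88 in females), PGRP-LA and PGRP-LC had r = 0.91, and PGRP-SC1a and PGRP-SC2 had r = 0.70. PGRP-LE ran opposite to the surface receptor, with r = -0.87 to PGRP-LC and -0.88 to PGRP-LA, and the sign was the same in both sexes. PGRP-LF followed PGRP-SD in males (r = 0.92) and not in females (r = -0.59). PGRP-SC1a and PGRP-LB had r = -0.84 in males and 0.81 in females.

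Of 10593 genes with a mean of at least 5 CPM, those most like PGRP-SA in the same measure were PGRP-SB1 (0.96), CG14245 (0.94) and Agxt, listed as Spat (0.93). Those most like PGRP-SB1 were PGRP-SA, the attacin gene AttC (0.94) and CG43109 (0.91), and those like PGRP-SD were CG11089 (0.92), Sardh, listed as CG6385 (0.92), and CR44108 (0.91). PGRP-LC was most like Tep3 (0.95), Spn77Ba (0.94) and Treh (0.94), and PGRP-LA like Treh (0.95), Spn77Ba (0.95) and pain (0.94). PGRP-LE was most like Slmap, listed as CG17494 (0.97), CG2921 (0.96) and m-cup (0.96), and PGRP-LF like the stress peptide gene TotC (0.88), CG4025 (0.84) and Ugt49C1, listed as CG15661 (0.84). PGRP-LB was most like CG17549 (0.92), NLaz (0.91) and CG11672 (0.89). The gut amidase PGRP-SC1a was most like CG33514 (0.88), the gut protease gene Jon99Ci (0.86) and CG7916 (0.86), and PGRP-SC2 like CG17147 (0.89), CREG (0.86) and CG1304 (0.86).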

How the data were processed

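RNA-seq read counts of whole flies were analysed in 18 libraries, 3 for each of 6 groups of sex and line. The authors deposited raw read counts per gene, 1 table per sex, not normalised, with a gene length in bases as a further column. Per the submitters' processing notes, the build was dm6 and DESeq2 was among the tools. No aligner, counter or strand setting is given in the sources used here. Library preparation used a stranded kit, per the labels' protocols. Of 16747 entries, 16642 were matched to a RefSeq gene of dm6, and 109 were ribosomal RNA. Depth was 31605198 to 58332629 counts per library, and library groups were taken from the sample titles.

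Counts were tested with edgeR 4.0.16 (glmQLFit and glmQLFTest, two-sided) in R 4.3.3 with limma 3.58.1, TMM scaling and filterByExpr (minimum count 10, minimum total 15). Lines were compared within a sex in a fit of its 9 libraries, and sexes, both sexes together and the interaction in a fit of all 18. A call needs p under 0.05 after Benjamini-Hochberg adjustment over all genes tested. Logarithms of CPM used a prior count of 2. Levels per kb use the deposited gene length. The 11 comparisons were refitted with DESeq2 1.42.0, RLE scaling, no low-count filter, ribosomal RNA left out, a replicate block and each library left out. The comparisons of lines within a sex were also refitted with the 6 compared libraries alone. Further refits of these used males without libraries above 500 CPM of yolk protein genes and females without libraries above 1000 CPM of Act88F. The edgeR step was tested on simulated data. Python 3.11.15, pandas 2.3.3 and matplotlib 3.10.9 made tables and figures.

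The members and lists were chosen with earlier results of these data known, so counts over a list are descriptions. All 10 members are named in each comparison. Of the other lists, called genes are named in INT against NINT, and called genes among the 4 of smallest p elsewhere, where not all of these are printed; Traf6 was named after its values were seen. For each member, likeness lists the 3 genes of highest Pearson r. Sequence comparisons of promoters and proteins were not analysed here.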

Additional observations from a re-analysis of the deposited data

Results flagged for a closer look

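PGRP-LF was marked because its INT and NINT difference in females was called as different from that in males. The log2 fold change of INT over NINT was 1.23 in females and -0.84 in males, and the difference of 2.04 passed edgeR's test (adjusted p = 0.0322). In females every INT library was above every NINT library, and in males every INT library was below every NINT library. PGRP-LB had the same order of libraries, at 0.35 in females and -0.37 in males. Its difference of 0.68 was not called (edgeR adjusted p = 0.194). The PGRP-LF value lost its call without any of 11 of the 12 libraries, as given with the comparison above.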

How the results depend on the processing

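The number of PGRP genes called depended on the fit, while directions held: of 1450 values of single members under alternatives, 81 had another sign than reported, and 0 of these were called under either setting. With DESeq2 the count, given with the share of all genes it called, was 3 (6.21%) in place of 0 for INT against NINT males, 2 (9.41%) in place of 1 for INT against F0 males, 8 (20.8%) in place of 4 for NINT against F0 males, 2 (6.61%) in place of 1 for INT against NINT females, 4 (7.46%) in place of 1 for INT against F0 females and 4 (34.2%) in place of 2 for NINT against F0 females. The share of all genes was higher than with edgeR in each of these. RLE scaling gave 4 (23.2%) in place of 2 for NINT against F0 females. It moved the log2 fold changes of single members by up to 0.12, and leaving out ribosomal RNA moved them by up to 0.13. No filter gave 0 in place of 1 for INT against NINT females (0.841%) and for the interaction (0.126%), where leaving out ribosomal RNA also gave 0 (0.164%). Fits of the 6 compared libraries gave 10 for NINT against F0 males, where 32.5% of all genes were called, 0 for INT against F0 males (0.303%) and females (0.252%) and 1 for NINT against F0 females (9.57%). Males without the yolk-rich libraries gave 0 for INT and for NINT against F0, where 0 of all genes were called, with 1 NINT and 1 F0 male left that were assumed to vary like the other groups. Females without Act88F-rich libraries gave 2 for INT against NINT (6.14%) and 2 for INT against F0 (1.21%). The F0 females were then F0 female 3 alone, which stands apart from its group and was assumed to vary like the others. Leaving out 1 library gave 0 to 8 for INT against NINT males, 0 to 1 for INT against F0 males, 1 to 4 for NINT against F0 males, 0 to 0 for INT against NINT females, 0 to 5 for INT and for NINT against F0 females, 0 to 3 for both sexes together and for the interaction, and 8 to 9, 10 to 10 and 3 to 7 for the sexes in INT, NINT and F0.

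Replicate numbers did not pair the libraries (correlations of -0.59 to 0.52). With the replicate block the count was 0 for INT against F0 males (0.419% of all genes), INT against NINT females (0.0228%) and the interaction (0.0457%), 1 for NINT against F0 males (0.99%) and females (6.45%) and 1 for both sexes together (0.882%), and was not moved in the other comparisons. With the union of annotated exons as gene length, chosen after seeing the data, the amidase share moved by less than the SD in each group. The cause of these changes was not tested.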

Other observations

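Other genes of the PGRP family were measured beside the 10 described above. PGRP-SC1b, the near-identical neighbour of PGRP-SC1a, was at 35.8, 64.8 and 80.3 CPM in INT females, 37.8, 45.4 and 30.5 CPM in NINT females, and 54.8, 75.7 and 153 CPM in F0 females. In males it was at 19.4, 21.9 and 8.35 CPM in INT, 8.68, 8.25 and 16.0 CPM in NINT, and 12.1, 10.4 and 9.94 CPM in F0. PGRP-LD ranged from 7.1 to 20.5 CPM over the 18 libraries and shares exon bases with Pmi and Cralbp. PGRP-SB2 was near 0, with 0.192, 0.573 and 0.197 CPM in NINT males and at most 0.0898 CPM in any other library.

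The ratio of PGRP-SC1a counts to PGRP-SC1b counts differed between the generation 12 lines and F0. It was 1.41 to 1.6 in INT females, 1.5 to 1.68 in NINT females and 2.54 to 3.02 in F0 females. In males it was 0.906 to 1.14 in INT, 0.953 to 1.08 in NINT and 2.25 to 2.62 in F0. INT and NINT overlapped in each sex, and F0 lay above both. The ratio was chosen after its values were seen and was given no test, and it depends on how reads that fit both copies were counted.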
